A study of Mus musculus with 16 samples.

Results

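The comparison of *Sirt2*-/- with wild-type (WT) CD8+ tumor-infiltrating lymphocytes (TILs) used 8 of the 16 RNA libraries of the series, 4 of each genotype, chosen by the cell type and genotype in their labels. TILs came from s.c. B16F10 melanomas, a tumor line of the C57BL/6 background, grown in WT C57BL/6J mice or in B6.129-*Sirt2*tm1.1Fwa/J mice, which lack *Sirt2* in every cell from the germline on. Mice were 7 to 8 weeks old, and no drug treatment is named for these libraries. The other 8 libraries are CD4+ TILs of the same genotypes and are used below only to set a CD8 value beside its CD4 value. The allele is a single targeted line carried on a B6 background, so loss of SIRT2 and any donor-strain DNA kept beside the locus cannot be told apart in this design. The protocol gives n = 4 per group, the number of libraries of each genotype and cell type, but no label ties a library to a mouse, so p-values measure the spread between these libraries. The TIL protocol of the study used a density gradient and CD3ε beads, which would remove most cells other than T cells, and how CD8+ were parted from CD4+ TILs for these libraries is not given in the sources used here.

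SIRT2 is an NAD-dependent deacetylase that resides mostly in the cytoplasm and removes acetyl groups from α-tubulin, histones and metabolic and signaling proteins. CD8+ T cells recognise peptide on class I MHC through the T cell receptor and kill target cells with perforin and granzymes. In tumors they are stimulated repeatedly and take up an exhausted state, with inhibitory receptors such as PD-1 on their surface. The study asked how loss of SIRT2 affects T cell receptor signaling and its consequences. Receptor-induced and interferon-response genes and Y-linked genes are not described below.

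Total counts were 39397812 to 52424211 in the *Sirt2*-/- and 32247774 to 37761374 in the WT libraries, and levels are CPM, read counts relative to library size scaled by TMM, which corrects for library composition. WT replicate 1 had a count in 14411 genes, against 18844 to 22138 in the other 7 libraries, so named genes and gene lists are given with and without it. Markers of CD8+ T cells (*Cd8a*, *Cd8b1*, *Cd3d*, *Cd3e*, *Cd3g*, *Cd2* and *Lck*) summed to 3705 to 4552 CPM in *Sirt2*-/- and 3548 to 4024 CPM in WT libraries. The paper states that controls were matched for age and sex. Yet Y-linked genes summed to 0.0739 to 0.404 CPM in the 4 *Sirt2*-/- libraries and to 66.6, 272, 20.2 and 8.94 CPM in WT replicates 1 to 4, so sex and genotype cannot be told apart in these libraries. In bulk RNA, fewer cells of a type and less RNA per cell cannot be told apart either.

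*Sirt2* was the only gene past the threshold in the edgeR fit of genotype to all 8 CD8 libraries, with a filter on low counts. It lies on chromosome 7 of GRCm38, from 28766735 to 28788661. Its level was 9.05, 10.3, 6.50 and 7.26 CPM in the *Sirt2*-/- libraries and 51.9, 34.7, 33.4 and 33.6 CPM in the WT libraries. Every *Sirt2*-/- library thus lay far below every WT library, but none was at 0 (322 to 448 counts), and counts per gene do not show which exons these reads came from. The log2 fold change was -2.22 (SE 0.21), a fall to 0.215 of the WT level, with an adjusted p of 0.00663 (edgeR quasi-likelihood test with Benjamini-Hochberg adjustment over 15302 genes, two-sided), and -2.03 (adjusted p = 0.000394) without WT replicate 1. This single call is 0.00654% of the genes tested. The edgeR adjusted p was 0.057 without *Sirt2*-/- replicate 1, 0.062 without replicate 4, and 1 when the spread was estimated over all 16 libraries, with log2 fold changes of -2.25, -2.16 and -2.21. The remaining sirtuins differed less. *Sirt1*, *Sirt3*, *Sirt4*, *Sirt5*, *Sirt6* and *Sirt7* had edgeR unadjusted p-values of 0.0708 to 0.888.

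Without WT replicate 1, edgeR placed 7 of 15943 genes (0.0439%) past an adjusted p of 0.05. These were *Sirt2*, *Fbxo17*, *Maf*, *Gas7*, *Kctd15*, *Zfp974* and 1 predicted gene left out with the Y-linked genes. DESeq2 on all 8 libraries called 28 genes (0.183%), 17 higher (0.111%) and 11 lower (0.0719%), and limma-voom with sample quality weights called 5 (0.0327%), namely *Sirt2*, *Fbxo17*, *Gas7*, *Maf* and *Col16a1*. At an unadjusted p below 0.05, edgeR gave 579 genes with all 8 libraries (3.78%) and 666 without WT replicate 1 (4.18%). Of these, 355 were shared, 61.3% of the first list and 53.3% of the second.

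*Fbxo17*, which encodes an F-box protein that brings substrates to an SCF ubiquitin ligase, had the clearest higher level. It lies on chromosome 7 from 28716804 to 28738144, 28.6 kb from *Sirt2*. *Sirt2*-/- libraries held 15.3, 16.6, 10.5 and 20.0 CPM and WT libraries 0.519, 2.15, 1.74 and 2.70 CPM. The groups did not overlap, as for 267 genes (1.74%) higher in *Sirt2*-/- over all tested genes, and WT replicate 1 was the lowest. The log2 fold change was 3.13 (SE 0.43), 8.74 times the WT level, and missed the edgeR threshold with all 8 libraries (adjusted p = 0.0903). Without WT replicate 1 *Fbxo17* rose by 2.83 on the log2 scale (edgeR adjusted p = 0.000782), and this call held in all 7 fits that left out a further library (edgeR adjusted p of 0.00014 to 0.0211).

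*Maf*, on chromosome 8 from 115682942 to 115707794, encodes c-MAF, a basic leucine zipper transcription factor known for driving *Il10* and for its part in exhausted and follicular T cells. Its level was 10.1, 15.1, 12.2 and 12.8 CPM in *Sirt2*-/- and 1.98, 3.85, 4.84 and 4.30 CPM in WT libraries. All 4 *Sirt2*-/- libraries were well above the highest WT library, and the lowest was again WT replicate 1. The log2 fold change was 1.74 (SE 0.29, edgeR adjusted p = 0.264) with all 8 libraries. Without WT replicate 1 *Maf* rose by 1.53 (edgeR adjusted p = 0.0179), but the call held in only 2 of the 7 fits without a further library, those without *Sirt2*-/- replicate 1 or 3 (edgeR adjusted p up to 0.255). With the spread estimated over all 16 libraries, *Maf* was the only gene called in CD8+ TILs (edgeR adjusted p = 0.0374). On the 8 CD8 libraries it also passed edgeR without a filter (adjusted p = 0.0403) and DESeq2 (adjusted p = 1.87e-05).

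CD4+ TILs had far more *Maf*, and the marker *Cd4* was higher in *Sirt2*-/- CD8 libraries on average. *Maf* was at 214 to 363 CPM in *Sirt2*-/- and 269 to 427 CPM in WT CD4+ TILs. *Cd4* itself was at 1.74, 3.97, 1.84 and 4.97 CPM in the *Sirt2*-/- and at 0, 0.97, 0.598 and 2.02 CPM in the WT CD8 libraries, against 377 to 620 CPM in the CD4 libraries. *Foxp3*, the transcription factor of regulatory T cells, was at 2.55 to 6.81 CPM in *Sirt2*-/- and 0.976 to 4.30 CPM in WT CD8 libraries. Over the 7 markers of CD4+ and regulatory T cells, 6 had a positive log2 fold change, the median was 0.153 beside 0.0106 over all genes (4 of 7 (median 0.14) without WT replicate 1), and their summed level was 151.7 to 236.6 CPM in *Sirt2*-/- and 122.2 to 195.0 CPM in WT. Most of this sum came from *Il2ra* (69.1 to 153.4 and 47.6 to 123.3 CPM) and *Ikzf4* (39.1 to 76.6 and 42.5 to 59.9 CPM), so it says little about *Cd4* or *Foxp3*. The part of CD4+ T cells in the *Maf* difference was not tested.

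*Gas7* was the leading gene with a lower level. It encodes a membrane-binding F-BAR protein linked to actin and lies on chromosome 11 from 67455437 to 67688990. Its level was 54.6, 46.6, 55.8 and 47.8 CPM in *Sirt2*-/- and 104.2, 95.7, 89.9 and 80.9 CPM in WT libraries. The groups were tight and did not overlap, as for 186 genes (1.22%) lower in *Sirt2*-/-. The log2 fold change was -0.86 (SE 0.11, edgeR adjusted p = 0.0795) with all 8 libraries. *Gas7* fell by 0.79 without WT replicate 1 (edgeR adjusted p = 0.0179), a call that held in 2 of the 7 fits without a further library, those without *Sirt2*-/- replicate 1 or 3 (edgeR adjusted p up to 0.179). CD4+ TILs had less *Gas7*, between 0 and 13.9 CPM.

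**Figure D1:**
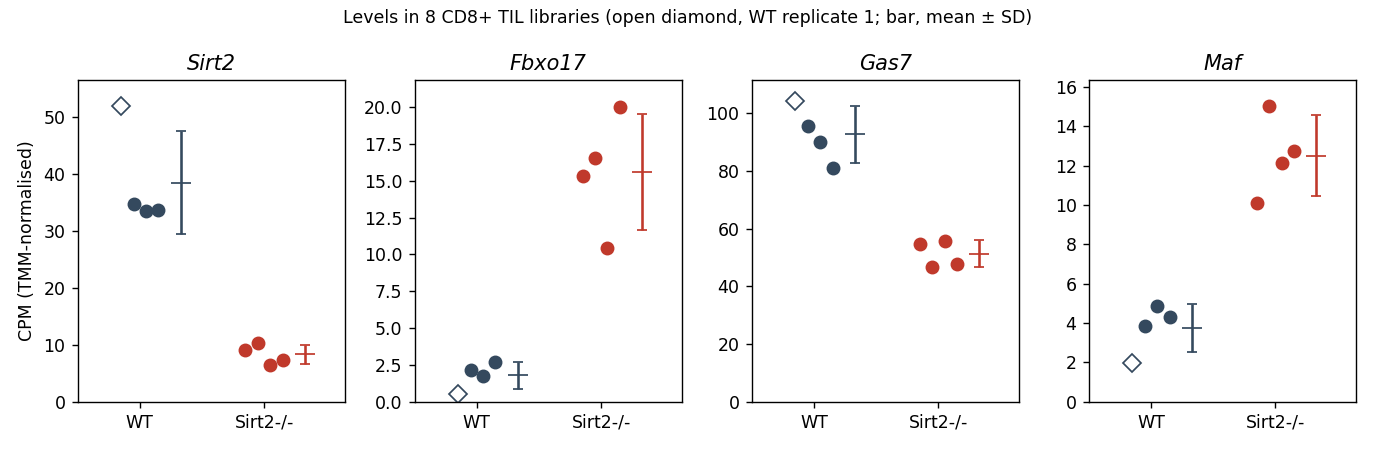
CPM of *Sirt2*, *Fbxo17*, *Gas7* and *Maf* in the 8 CD8+ TIL libraries, each point 1 library, with the mean and SD (n = 4) beside each group and WT replicate 1 as an open diamond. For all 4 genes the *Sirt2*-/- and WT libraries do not overlap, and WT replicate 1 is the most extreme WT library in the direction away from *Sirt2*-/-.

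Several of the genes that passed any of the 4 fits lay near *Sirt2*. Apart from *Sirt2* and the 8 genes left out by rule, 20 genes passed, and 6 of them (30%) were within 10 Mb of *Sirt2*, a window that holds 254 tested genes (1.66%). *Fbxo17* and *Zfp14* were higher, and *Mrps12*, *Zfp974* and *Kctd15* were lower in *Sirt2*-/-. These 5 had the same sign, with an unadjusted p below 0.05, in CD4+ TILs without *Sirt2*-/- replicate 4 and WT replicate 1, the 2 CD4 libraries with few genes (edgeR, 4.35% of all genes tested there). The sources do not say whether CD4 and CD8 libraries share mice. The Y-linked sum was highest in WT replicate 2 in the CD4 libraries too (302 CPM), so the CD4 values may not be independent of the CD8 values.

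*Mrps12*, which encodes a protein of the small mitochondrial ribosomal subunit, lies 24.9 kb from *Sirt2*. It was at 5.01, 6.14, 3.90 and 6.14 CPM in *Sirt2*-/- and 13.5, 8.65, 9.76 and 13.3 CPM in WT libraries, without overlap. The log2 fold change was -1.09 (SE 0.25), with an adjusted p of 0.0231 by DESeq2 and 0.921 by edgeR, and was -0.996 without WT replicate 1 (edgeR adjusted p = 0.561). *Mrps12* and *Fbxo17* thus lie at a similar distance from *Sirt2* and differed in opposite directions.

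*Zfp974*, a zinc finger gene 837 kb away, was at 1.50, 0.665, 1.45 and 1.74 CPM in *Sirt2*-/- and 1.62, 7.31, 7.20 and 5.76 CPM in WT libraries. With all 8 libraries the log2 fold change was -2.03 (SE 0.52, edgeR adjusted p = 0.986, DESeq2 0.046). WT replicate 1 sat among the *Sirt2*-/- libraries, and *Zfp974* fell by 2.33 without it (SE 0.34, edgeR adjusted p = 0.0332). *Kctd15*, a BTB domain gene 5.85 Mb away, had 3, 0, 0 and 3 counts in *Sirt2*-/- and 0, 85, 66 and 80 counts in WT libraries. It did not pass the filter on low counts with all 8 libraries, and fell without WT replicate 1, which held none of its reads (edgeR adjusted p = 0.0253). Each of these 2 calls held in 2 of the 7 fits without a further library, with edgeR adjusted p-values up to 0.332 for *Zfp974* and 0.255 for *Kctd15*.

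*Zfp14*, another zinc finger gene, 1.25 Mb away, was at 7.36, 7.12, 5.98 and 5.49 CPM in *Sirt2*-/- and 1.89, 2.99, 3.02 and 3.40 CPM in WT libraries. The groups did not overlap, and *Zfp14* passed DESeq2 (adjusted p = 0.0231) but not edgeR (adjusted p = 0.986, and 0.561 without WT replicate 1).

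**Figure D2:**
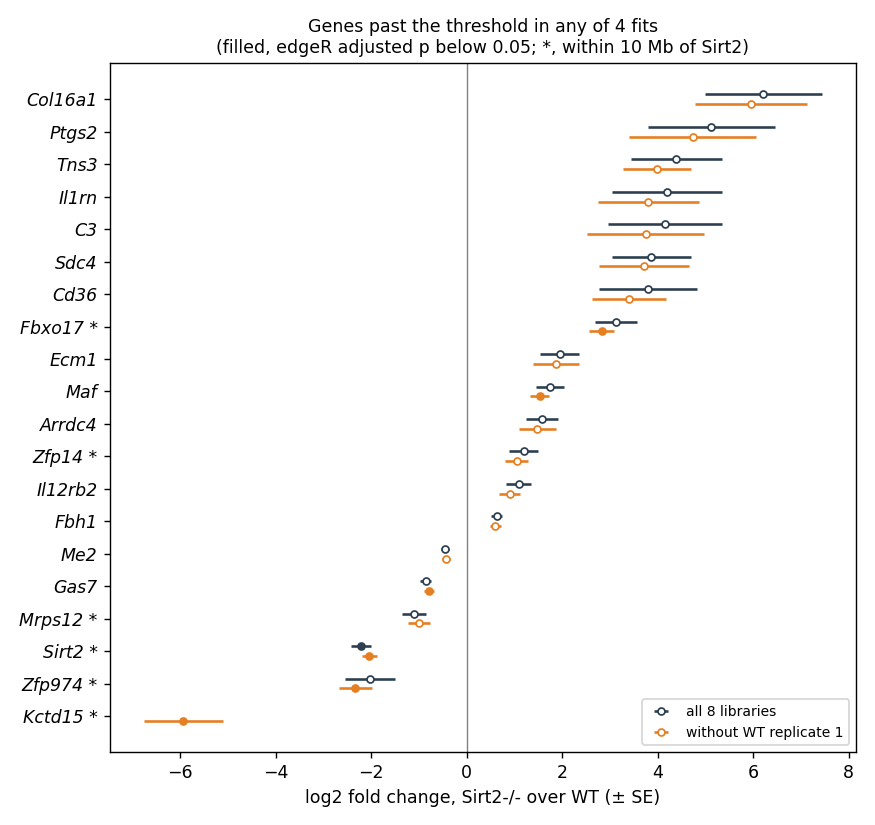
Log2 fold change of *Sirt2*-/- over WT with its SE for 20 genes past an adjusted p of 0.05 in any of 4 fits (edgeR with all 8 libraries, edgeR without WT replicate 1, DESeq2, limma-voom), from edgeR with all 8 libraries and without WT replicate 1. Filled points passed edgeR, which is *Sirt2* alone with all 8 libraries, and a star marks *Sirt2* and 5 genes within 10 Mb of it.

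Beyond the *Sirt2* region, DESeq2 passed genes of metabolism, DNA repair and cytokine signaling that edgeR did not. DESeq2 called more unchanged genes than edgeR or limma-voom did in counts simulated for this comparison, so a gene passed by DESeq2 alone is given as a difference in these libraries and not as a gene that rose or fell. *Me2*, the mitochondrial NAD-dependent malic enzyme, was at 80.5, 74.6, 85.4 and 79.3 CPM in *Sirt2*-/- and 114, 103, 112 and 107 CPM in WT libraries. All *Sirt2*-/- libraries were below all WT libraries, with a log2 fold change of -0.45 (SE 0.09, DESeq2 adjusted p = 0.00151, edgeR 0.647) and -0.43 without WT replicate 1 (edgeR 0.406). *Fbh1*, an F-box DNA helicase that acts in recombination, was at 43.7, 38.6, 45.4 and 34.7 CPM in *Sirt2*-/- and 24.8, 27.2, 26.5 and 26.6 CPM in WT libraries. Here all *Sirt2*-/- libraries were higher, with a log2 fold change of 0.63 (SE 0.12, DESeq2 adjusted p = 0.00291, edgeR 0.647) and 0.60 without WT replicate 1 (edgeR 0.306).

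*Il12rb2*, the signaling chain of the IL-12 receptor, was at 85.9, 56.7, 49.7 and 74.3 CPM in *Sirt2*-/- and 17.7, 29.2, 32.9 and 45.0 CPM in WT libraries. The groups did not overlap, and the log2 fold change was 1.09 (SE 0.26, DESeq2 adjusted p = 0.0217, edgeR 0.986). *Arrdc4*, an α-arrestin that controls glucose uptake, was at 33.8, 10.1, 24.3 and 15.7 CPM in *Sirt2*-/- and 5.43, 8.99, 7.01 and 6.63 CPM in WT libraries, with *Sirt2*-/- replicate 2 just above the highest WT library (log2 fold change 1.58, SE 0.34, DESeq2 adjusted p = 0.00482, edgeR 0.679). *Ecm1*, an extracellular matrix protein that T helper cells also make, was at 21.7, 13.0, 6.68 and 12.9 CPM in *Sirt2*-/- and 2.90, 1.70, 4.16 and 5.34 CPM in WT libraries (log2 fold change 1.95, SE 0.42, DESeq2 adjusted p = 0.00291, edgeR 0.679). *Ecm1* was at 65.2 to 134 CPM in CD4+ TILs. *Sirt2*-/- replicate 1 had the most *Ecm1* but, at 1.74 CPM, the least *Cd4* of the *Sirt2*-/- CD8 libraries. The part of CD4+ T cells in the *Ecm1* difference was not tested. Without WT replicate 1, the log2 fold changes were 0.90 for *Il12rb2*, 1.48 for *Arrdc4* and 1.87 for *Ecm1* (edgeR adjusted p = 0.845, 0.937 and 0.895).

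A further group of DESeq2 calls was high in *Sirt2*-/- replicates 2 and 4 and low in WT libraries. *Sdc4*, the proteoglycan syndecan-4, was at 1.11, 10.5, 1.25 and 6.06 CPM in *Sirt2*-/- and 0.214, 0.157, 0.408 and 0.506 CPM in WT libraries. *Tns3*, the adhesion protein tensin-3, was at 0.990, 6.80, 2.32 and 5.66 CPM in *Sirt2*-/- and 0 to 0.381 CPM in WT. *Ptgs2*, the cyclooxygenase COX-2, was at 0.485, 3.85, 0.363 and 5.17 CPM in *Sirt2*-/- and 0 to 0.210 CPM in WT. *Sdc4*, *Tns3* and *Ptgs2* did not overlap between genotypes, as for 1.74% of tested genes higher in *Sirt2*-/-. *Sirt2*-/- replicates 1 and 3 were close to WT for *Ptgs2*.

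*C3*, the central complement protein, was at 0.727, 4.54, 0.424 and 10.9 CPM in *Sirt2*-/- and 0 to 0.419 CPM in WT libraries. *Cd36*, a scavenger receptor for lipids, was at 0.808, 2.32, 1.19 and 6.45 CPM in *Sirt2*-/- and 0 to 0.341 CPM in WT. *Il1rn*, the IL-1 receptor antagonist, was at 1.07, 4.66, 0.283 and 5.25 CPM in *Sirt2*-/- and 0 to 0.288 CPM in WT, where replicate 3 fell just inside the WT range. *C3*, *Cd36* and *Il1rn* are known as genes of myeloid cells. DESeq2 adjusted p-values of *Sdc4*, *Tns3*, *Ptgs2*, *C3*, *Cd36* and *Il1rn* were 9.93e-05 to 0.0231, and edgeR adjusted p-values 0.679 to 0.986, or 0.192 to 1 without WT replicate 1.

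Macrophage markers, matrix genes and several fibroblast markers were high in the same libraries, but the summed markers of B cells and of dendritic cells were not. The 14 macrophage markers summed to 16.8, 38.5, 16.4 and 61.1 CPM in *Sirt2*-/- and 15.3, 15.6, 10.8 and 14.0 CPM in WT libraries. *Sirt2*-/- replicates 2 and 4 stood well above the rest, while replicates 1 and 3 were just above WT. None of the 14 was at 0 in all 8 libraries. The 12 that passed the filter on low counts were positive (median 2.35, or 1.94 without WT replicate 1, beside 0.0106 and 51.9% positive over all genes), but only *Apoe* and *Cd68* had at least 10 counts in every library, with a median of 0.674. A gene can pass the filter through the group where it is high, so the median over those that passed is a description only, and none passed the adjusted threshold.

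Matrix genes behaved alike, with 28 members summing to 24.8, 92.3, 16.9 and 334.7 CPM in *Sirt2*-/- and 14.0 to 19.9 CPM in WT libraries. Of the 28, 11 passed the filter on low counts, in part through the *Sirt2*-/- libraries where they are high, and their median of 3.61 (3.6 over 16 genes without WT replicate 1) is a description only. 1 of the 28, *Timp2*, had at least 10 counts in every library, with a log2 fold change of 0.301. *Col1a1*, a chain of type I collagen, was at 0.202, 7.76, 0.626 and 21.8 CPM in *Sirt2*-/- and 0, 1.34, 0.544 and 0.337 CPM in WT, so the groups overlapped. The 2 libraries with the most *Col1a1* were *Sirt2*-/- replicates 4 and 2.

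Class II MHC genes, which present peptide to CD4+ T cells, were positive in 7 of 8 (median 1.21) and in 8 of 8 (median 1.19) without WT replicate 1, and 4 of them (*H2-DMa*, *Cd74*, *H2-DMb2* and *H2-Ab1*) had an edgeR unadjusted p below 0.05 (2.18% of all genes in this direction). Of the 10 class II genes, 8 passed the filter on low counts, which a gene can do through the group where it is high. Over the 5 with at least 10 counts in every library, 4 were positive (median 0.892). The 10 genes summed to 44.5 to 103.5 CPM in *Sirt2*-/- and 31.3 to 35.8 CPM in WT libraries. Chemokine ligand genes were positive in 8 of the 9 (of 20) that passed the filter on low counts (median 2.47), and the median was 2.08 without WT replicate 1, 1.21 without *Sirt2*-/- replicate 4, 3.80 without WT replicate 2, and 0.0398 over the 3 genes with at least 10 counts in every library. Members with an unadjusted p below 0.05 were *Ccl9*, *Cxcl16*, *Pf4*, *Cxcl2* and *Ccl2*. *Ccl9*, a macrophage-attracting chemokine, was at 3.44, 3.13, 6.99 and 4.38 CPM in *Sirt2*-/- and 1.53, 1.97, 1.25 and 1.52 CPM in WT, without overlap (log2 fold change 1.52, SE 0.41, edgeR adjusted p = 0.986, or 1.50 and 0.665 without WT replicate 1), and was highest in *Sirt2*-/- replicate 3 rather than 4.

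The 2 highest levels of *Fbxo17* and of *Maf* were in *Sirt2*-/- replicates 2 and 4 as well, although their *Sirt2*-/- replicates 1 and 3 were also above every WT library. Melanoma markers summed to 10.2 to 18.7 CPM in *Sirt2*-/- and 6.55 to 13.0 CPM in WT libraries, the highest WT value being replicate 1. B cell markers summed to 41.3 to 66.7 CPM in *Sirt2*-/-, lowest in replicate 4, and to 52.6 to 68.4 CPM in WT. *Ighm* alone made 38.8 to 61.7 and 51.0 to 65.7 CPM of these sums. Sums in *Sirt2*-/- and WT were 20.71 to 54.6 and 33.55 to 45.15 CPM for NK cell markers. For dendritic cell markers they were 72.0 to 130.8, highest in *Sirt2*-/- replicate 1, and 67.9 to 104 CPM, of which *Ccr7* alone made 53.2 to 120.9 and 57.4 to 89.1 CPM. Fibroblast markers gave 624.6 to 767.7 and 615.9 to 777.7 CPM, of which *Thy1* alone made 616.1 to 758 and 615.9 to 775.2 CPM. For *Col1a1*, *Col1a2*, *Col3a1*, *Pdgfrb* and *Fap* the 2 highest levels were in *Sirt2*-/- replicates 2 and 4. *Dcn*, *Lum* and *Pdgfra* were highest in replicate 4. Endothelial markers summed to 9.43 CPM in *Sirt2*-/- replicate 4 and to at most 0.731 CPM in every other library. Neutrophil markers summed to at most 1.52 CPM, and *Retnlg*, *Cxcr2* and *Ngp* were at 0 in all 8 libraries, as were the dendritic cell markers *Clec9a* and *Cd209a* and the endothelial marker *Tek*. The part of macrophages and stromal cells in these differences was not tested.

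**Figure D3:**
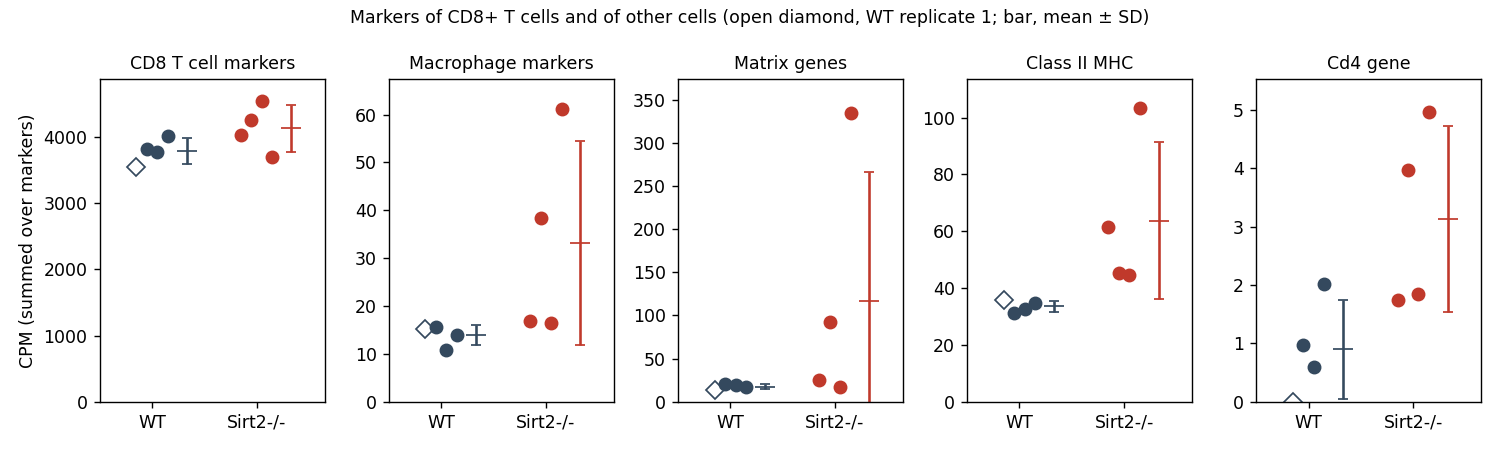
CPM summed over the markers of CD8+ T cells, macrophage markers, matrix genes and class II MHC genes, and CPM of the *Cd4* gene, in the 8 CD8+ TIL libraries, with the mean and SD (n = 4). CD8 T cell markers overlap between genotypes, whereas *Sirt2*-/- replicate 4 has the highest macrophage (61.1), matrix (334.7), class II (103.5) and *Cd4* (4.97) values.

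Among T cell programs, no member other than *Maf* passed an edgeR adjusted p of 0.05 in either fit, and the lists are given by their counts at an unadjusted p below 0.05, which 2.18% of all genes passed as higher and 1.6% as lower. Cytotoxic granule genes were positive in 18 of 23, with a median log2 fold change of 0.252, and in 17 of 23 (median 0.159) without WT replicate 1, where 51.7% of all genes were positive. 5 of them (*Prf1*, *Gzmc*, *Gzmf*, *Serpinb6b* and *Gzma*) had an unadjusted p below 0.05 with a higher level and none with a lower level, and 4 did so without WT replicate 1 (2.87% of all genes in this direction). *Prf1*, perforin, was at 138, 107, 261 and 205 CPM in *Sirt2*-/- and 100.4, 106, 122 and 121 CPM in WT libraries (log2 fold change 0.66, SE 0.23, edgeR adjusted p = 0.986, unadjusted p = 0.0151 and 0.0672 without WT replicate 1). *Sirt2*-/- replicate 2 lay within the WT range, and the groups overlapped. *Gzmb*, a granzyme of effector cells that was outside the rule for named genes, ranged from 336.8 to 1328 CPM in *Sirt2*-/- and from 122.9 to 445.2 CPM in WT libraries (unadjusted p = 0.057 and 0.22 without WT replicate 1, edgeR).

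Inhibitory receptors were positive in 13 of 20 (median 0.0742) and in 13 of 20 (median 0.0467) without WT replicate 1, with 1 gene higher and 2 lower at an unadjusted p below 0.05. *Pdcd1*, which encodes PD-1, was at 70.3, 134, 137 and 118 CPM in *Sirt2*-/- and 69.8, 84.8, 73.4 and 90.1 CPM in WT libraries (log2 fold change 0.53, SE 0.19, edgeR adjusted p = 0.986, or 0.47 without WT replicate 1 with an unadjusted p of 0.051). *Sirt2*-/- replicate 1 was at the WT level while the other 3 were above all WT libraries. *Btla*, an inhibitory receptor of the immunoglobulin family, was at 20.9, 17.1, 20.0 and 22.4 CPM in *Sirt2*-/- and 28.0, 26.0, 32.6 and 25.8 CPM in WT libraries, without overlap (log2 fold change -0.48, SE 0.14, and -0.48 without WT replicate 1), and *Cd101* had a log2 fold change of -0.44 (SE 0.17), or -0.28 without that library.

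Costimulatory receptors were positive in 11 of 16 (median 0.0847) and in 10 of 16 (median 0.0526) without WT replicate 1, with *Tnfrsf4*, *Icos* and *Tnfrsf18* higher at an unadjusted p below 0.05. *Tnfrsf4*, which encodes OX40, was at 11.8, 18.8, 18.8 and 21.3 CPM in *Sirt2*-/- and 13.2, 7.73, 8.45 and 8.35 CPM in WT libraries. WT replicate 1 stood apart from the other WT libraries, and without it the groups did not overlap, as for 2.73% of tested genes higher in *Sirt2*-/-. The log2 fold change was then 1.11 (edgeR adjusted p = 0.179), against 0.91 with all 8 libraries (SE 0.24, edgeR adjusted p = 0.986). *Tnfrsf4* was at 149 to 330 CPM in CD4+ TILs. *Icos* was at 47.4 to 72.4 CPM in *Sirt2*-/- and 40.9 to 51.8 CPM in WT libraries.

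Effector and exhaustion transcription factors were positive in 17 of 26 (median 0.154) and in 17 of 26 (median 0.105) without WT replicate 1, with *Maf* and *Hif1a* at an unadjusted p below 0.05. *Hif1a*, the hypoxia-inducible factor, was at 175, 208, 191 and 291 CPM in *Sirt2*-/- and 127, 170.3, 160.3 and 168 CPM in WT libraries, without overlap (log2 fold change 0.47, SE 0.16, edgeR adjusted p = 0.986, or 0.38 without WT replicate 1). *Tox*, a factor that maintains exhaustion, was at 88.7 to 186.2 CPM in *Sirt2*-/- and 92.5 to 130.8 CPM in WT (log2 fold change 0.02, SE 0.23, or 0.10 without WT replicate 1). Of 28 naive, memory and stem-like genes, 17 were positive (median 0.0501), or 21 of 28 (median 0.137) without WT replicate 1, and 1 (*Trib2*) had an unadjusted p below 0.05. *Tcf7*, which encodes the stem-like factor TCF-1, ranged from 331.6 to 685.9 CPM in *Sirt2*-/- and from 388.7 to 481.3 CPM in WT. *Tox* and *Tcf7* were added for their known roles, outside the rule for named genes.

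Cytokine receptors and JAK-STAT genes were positive in 18 of 29 (median 0.1) and in 19 of 29 (median 0.105) without WT replicate 1, with *Il12rb2*, *Ifngr2* and *Ifngr1* higher and *Il18r1* lower at an unadjusted p below 0.05. *Il18r1*, the IL-18 receptor chain, was at 207, 198, 221 and 179 CPM in *Sirt2*-/- and 298, 230.3, 283 and 234 CPM in WT libraries, without overlap (log2 fold change -0.38, SE 0.11, edgeR adjusted p = 0.986, or -0.31 without WT replicate 1). *Ifngr2*, a chain of the interferon-γ receptor, was at 32.9, 12.4, 11.3 and 12.8 CPM in *Sirt2*-/- and 5.49 to 9.22 CPM in WT. Replicate 1 alone carried the high *Ifngr2* value, yet all 4 *Sirt2*-/- libraries were above WT.

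Of 21 genes of integrins, adhesion and tissue residency, 13 were positive (median 0.101), and 14 of 22 (median 0.026) were without WT replicate 1. With all 8 libraries *Itga1* and *Itgb1*, which together form the collagen-binding integrin of resident T cells, were lower at an unadjusted p below 0.05. *Rgs1*, a regulator of G protein signaling, was higher. Without WT replicate 1, 2 members were higher and 5 lower at that level, as were 458 and 208 of all 15943 genes tested. *Itgb1* was at 592, 555, 720.0 and 498 CPM in *Sirt2*-/- and 584, 854, 853 and 832 CPM in WT libraries. WT replicate 1 lay among the *Sirt2*-/- libraries, and without it the groups did not overlap, as for 2.45% of tested genes lower in *Sirt2*-/- (log2 fold change -0.52, edgeR adjusted p = 0.561). With all 8 libraries the log2 fold change of *Itgb1* was -0.40 (SE 0.15, edgeR adjusted p = 0.986). *Itga1* was at 69.6 to 109 CPM in *Sirt2*-/- and 100.3 to 131 CPM in WT, where only *Sirt2*-/- replicate 3 reached the WT range. Killer cell lectin-like receptors were positive in 8 of 19 (median -0.124) and in 4 of 19 (median -0.154) without WT replicate 1, and none had an unadjusted p below 0.05.

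T cell receptor complex and proximal kinase genes were positive in 23 of 33 (median 0.0679) and in 24 of 33 (median 0.0579) without WT replicate 1, with *Trbc2* and *Sla2* among the members higher at an unadjusted p below 0.05. *Sla2*, an adaptor that dampens receptor signaling, was at 69.4, 94.5, 90.4 and 95.7 CPM in *Sirt2*-/- and 69.7, 75.6, 74.2 and 73.4 CPM in WT libraries (log2 fold change 0.26, SE 0.11, edgeR adjusted p = 0.986, or 0.24 without WT replicate 1 with an unadjusted p of 0.0601). *Sirt2*-/- replicate 1 was below every WT library and the other 3 were above them all, so the groups overlapped.

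Antioxidant genes had a median log2 fold change of 0.00179 over 21 members (-0.0707 without WT replicate 1), yet both subunits of glutamate-cysteine ligase, which makes the precursor of glutathione, were lower. *Gclc*, the catalytic subunit, was at 75.8, 57.7, 58.0 and 59.3 CPM in *Sirt2*-/- and 114, 85.2, 83.6 and 76.7 CPM in WT libraries (log2 fold change -0.52, SE 0.14, edgeR adjusted p = 0.986, or -0.38 without WT replicate 1). *Gclm*, the modifier subunit, was at 54.7, 45.6, 60.5 and 40.8 CPM in *Sirt2*-/- and 90.3, 70.2, 72.4 and 61.5 CPM in WT libraries (log2 fold change -0.55, SE 0.15, edgeR adjusted p = 0.986, or -0.43 without WT replicate 1). Neither gene overlapped between genotypes, as for 1.22% of tested genes lower in *Sirt2*-/-, and for both WT replicate 1 was the highest library. *Slc7a11*, the cystine importer, had its 2 highest levels in *Sirt2*-/- replicates 4 (4.72 CPM) and 2 (2.44 CPM), as had the macrophage and matrix genes.

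Other metabolic lists had medians within 0.1 of 0 with all 8 libraries, and the direction of some depended on WT replicate 1. Glycolysis genes were positive in 11 of 25 (median -0.033) and in 6 of 25 (median -0.0756) without WT replicate 1, with *Eno3*, muscle enolase, lower at an unadjusted p below 0.05. Tricarboxylic acid cycle and malate enzyme genes were positive in 18 of 29 (median 0.0454) and in 12 of 29 (median -0.0276) without that library, with *Me2* the 1 gene at an unadjusted p below 0.05. Fatty acid oxidation genes were positive in 20 of 26 (median 0.0955) and in 17 of 26 (median 0.0654) without it, with *Cd36* and *Acsl3* higher, and sterol and fatty acid synthesis genes in 17 of 29 (median 0.0806) and in 15 of 29 (median 0.0159) without it, with *Abca1* higher and *Acsl6* lower. *Abca1*, the cholesterol exporter, was at 6.34, 4.83, 4.06 and 6.41 CPM in *Sirt2*-/- and 0.793, 2.10, 1.98 and 2.73 CPM in WT libraries, without overlap (log2 fold change 1.51, SE 0.42, edgeR adjusted p = 0.986, or 1.25 and 0.561 without it). Nuclear genes of the respiratory chain were positive in 51 of 77 (median 0.0726) and in 45 of 77 (median 0.0243) without it, and none had an unadjusted p below 0.05.

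Among sirtuins and NAD enzymes, 13 of 21 were positive (median 0.184), or 14 of 22 (median 0.0638) without WT replicate 1, with *Nampt* higher at an unadjusted p below 0.05. *Nampt*, the enzyme that recycles nicotinamide to NAD, was at 97.8, 74.8, 69.2 and 91.4 CPM in *Sirt2*-/- and 33.4, 64.9, 62.6 and 70.7 CPM in WT libraries. WT replicate 1 was far below the other WT libraries, and the log2 fold change was 0.52 with it and 0.34 without it (edgeR adjusted p = 0.986 and 1). Histone deacetylase genes were positive in 3 of 10 (median -0.192, or -0.101 without WT replicate 1) and tubulin genes in 7 of 16 (median -0.0123, or -0.11), with none at an unadjusted p below 0.05. *Hdac6*, the other tubulin deacetylase of the cytoplasm, was at 9.48 to 12.3 CPM in *Sirt2*-/- and 10.9 to 19.8 CPM in WT libraries, where 19.8 was WT replicate 1.

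Cell cycle and protein synthesis lists had medians near 0, and part of their direction depended on WT replicate 1. G1-S genes were positive in 17 of 30 (median 0.0151) with all 8 libraries and in 2 of 30 (median -0.0651) without WT replicate 1. G2-M genes were positive in 11 of 30 (median -0.0641) and in 4 of 30 (median -0.185), and none of either list had an unadjusted p below 0.05 in either fit. The summed level of the G2-M genes ranged from 1286 to 2455 CPM in *Sirt2*-/- and from 1490 to 2890 CPM in WT libraries, so the genotypes overlapped widely. Cytosolic ribosomal protein genes were positive in 73 of 82 (median 0.0963) and in 57 of 82 (median 0.0464) without WT replicate 1, and constitutive proteasome genes in 26 of 34 (median 0.0831) and in 19 of 34 (median 0.00371). *Bcl2* family genes, which hold both survival and cell death proteins, were positive in 9 of 15 (median 0.094) and in 9 of 15 (median 0.071) without WT replicate 1. With all 8 libraries 1 member was higher and 2 were lower at an unadjusted p below 0.05, and without WT replicate 1 none was higher and 1 was lower. Of all 15943 genes tested without WT replicate 1, 458 were higher and 208 lower at that level. *Mcl1*, a survival protein, was at 401 to 511 CPM in *Sirt2*-/- and 337 to 395 CPM in WT libraries, and the cell death genes *Bbc3* (3.16 to 5.96 against 6.04 to 12.3 CPM) and *Bik* (0.0739 to 0.629 against 0.787 to 3.54 CPM) had lower levels. The groups did not overlap for these 3, as for 1.74% of tested genes higher and 1.22% lower in *Sirt2*-/-. Over the 15 members tested, 2 lay above and 3 below WT without overlap. None of *Mcl1*, *Bbc3* and *Bik* passed the adjusted threshold (edgeR adjusted p = 0.986 each), with edgeR unadjusted p-values of 0.0863, 0.035 and 0.0661 without WT replicate 1.

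Among the remaining lists, cathepsins and scavenger receptors were positive in 15 of 17 (median 0.617, or 0.353 without WT replicate 1), with 6 members higher at an unadjusted p below 0.05, among them the macrophage receptors *Cd36*, *Mrc1*, *Msr1* and *Stab1*. Members can pass the filter on low counts through the group where they are high. Over the 10 with at least 10 counts in every library, 8 were positive (median 0.364). Cytokine genes were positive in 11 of 14 (median 0.239) and in 11 of 15 (median 0.116) without WT replicate 1, with *Csf1*, a macrophage growth factor, at 17.7, 21.2, 46.1 and 45.6 CPM in *Sirt2*-/- and 24.0, 18.0, 18.8 and 17.5 CPM in WT libraries, where replicates 3 and 4 alone exceeded WT. Chemokine receptors were positive in 9 of 11 (median 0.195) and in 9 of 13 (median 0.291) without it, with *Ccrl2* higher at an unadjusted p below 0.05. Heat shock and chaperone genes were positive in 4 of 17 (median -0.0524) and in 5 of 18 (median -0.12) without it, where 3 passed that level as lower against 0 with all 8 libraries. Over all genes tested, 208 of 15943 passed it as lower without WT replicate 1, and 245 of 15302 with all 8 libraries. Genes of the unfolded protein response (16 of 23 positive, median 0.0463, and 9 of 23, median -0.00928, without it) and of the actin cytoskeleton (25 of 36 positive, median 0.0504, and 11 of 36, median -0.0235, without it) had medians above 0 with all 8 libraries and below 0 without WT replicate 1, *Gas7* being the lowest of the actin list. Amino acid genes (10 of 20 positive, median -0.00268, and 4 of 20, median -0.113, without it) moved further below 0. Hypoxia genes (11 of 16 positive, median 0.0935, and 13 of 17, median 0.133, without it) and p53 targets (7 of 16 positive, median -0.0547, and 8 of 16, median -0.0241, without it) kept the sign of their medians.

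**Figure D4:**
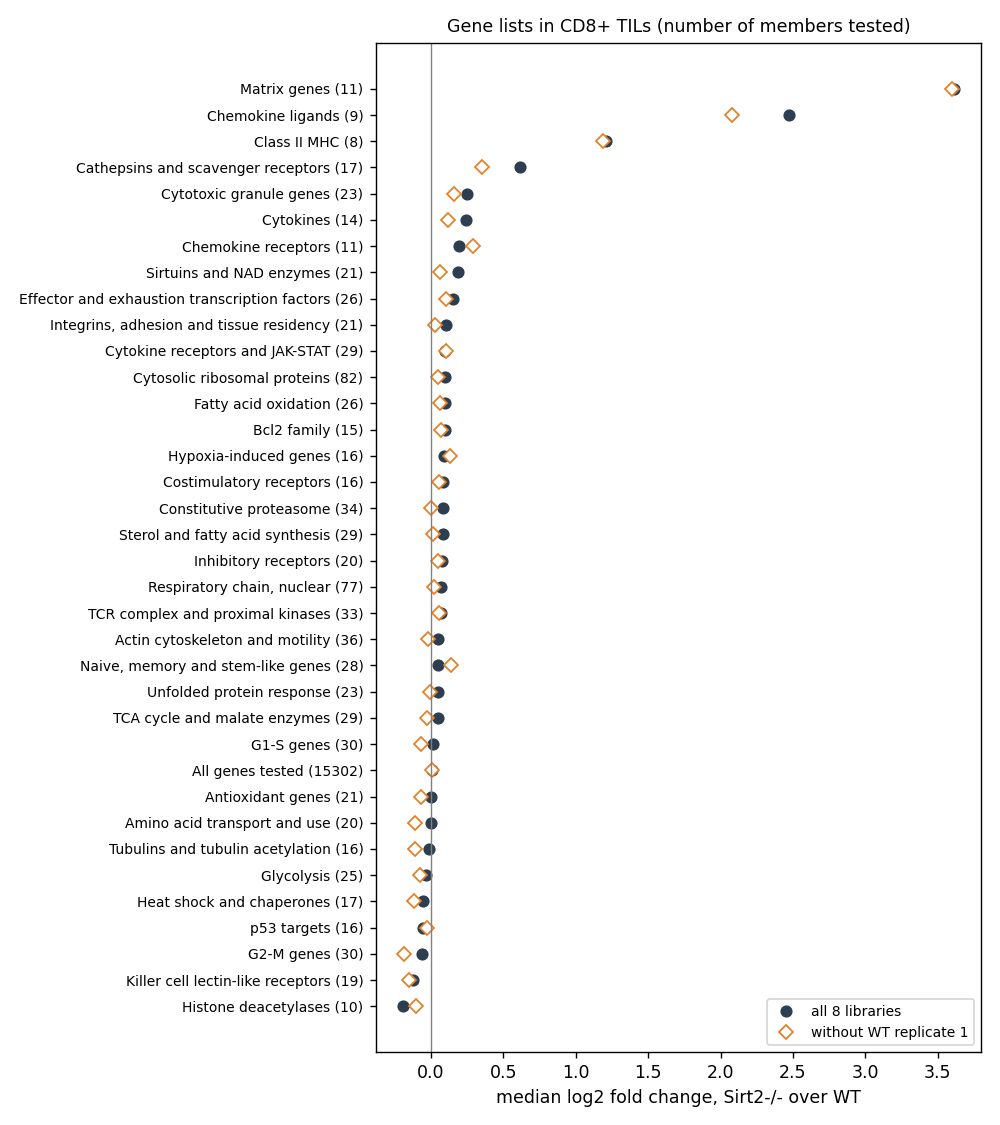
Median log2 fold change for 35 gene lists and for all genes tested, from edgeR with all 8 libraries (filled circles) and without WT replicate 1 (open diamonds), with the number of tested members in brackets. Matrix genes (3.61), chemokine ligands (2.47) and class II MHC genes (1.21) lie apart, lists of which 11 of 28, 9 of 20 and 8 of 10 members passed the filter, and the other lists lie between -0.192 and 0.252, apart from cathepsins and scavenger receptors at 0.617.

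The genotype difference in CD8+ TILs was set beside that in CD4+ TILs. No gene passed the threshold for a difference of the genotype effect between CD8+ and CD4+ TILs (0 of 17270, 0%, edgeR interaction test over 16 libraries), and 342 had an unadjusted p below 0.05 (1.98%). *Maf* had the difference with the smallest unadjusted p among the genes passed by any fit, with a log2 fold change of 1.74 in CD8+ and -0.11 in CD4+ TILs (unadjusted p = 4.4e-05, edgeR adjusted p = 0.76). Without the 3 libraries with under 15000 genes with a count the adjusted p was 0.245. *Me2* gave 0.15 in CD4+ TILs without 2 libraries (edgeR interaction unadjusted p = 0.00126 without the 3 libraries, adjusted p = 1), with CD4 levels of 38.4 to 73.0 CPM in *Sirt2*-/- and 52.7 to 62.4 CPM in WT.

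*Fbxo17* showed the same difference in both cell types. In CD4+ TILs it was at 38.0, 24.7, 23.6 and 36.8 CPM in *Sirt2*-/- and 18.5, 2.36, 4.58 and 2.60 CPM in WT libraries. WT replicate 1, 1 of the 2 CD4 libraries with few genes, was the highest of the WT, and all *Sirt2*-/- libraries lay above it. *Fbxo17* rose by 3.17 without the 2 libraries (SE 0.32, edgeR adjusted p = 0.00219, 6 of 16034 genes or 0.0374% called) and had a log2 fold change of 2.13 with all 8 (edgeR adjusted p = 1, 0 of 15070 genes called, 190 or 1.26% at an unadjusted p below 0.05). Of the 14 genes passed by any CD8 fit that lie farther from *Sirt2*, 13 were tested in CD4+ TILs, 10 had the same sign there, and 2 had an unadjusted p below 0.05.

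**Figure D5:**
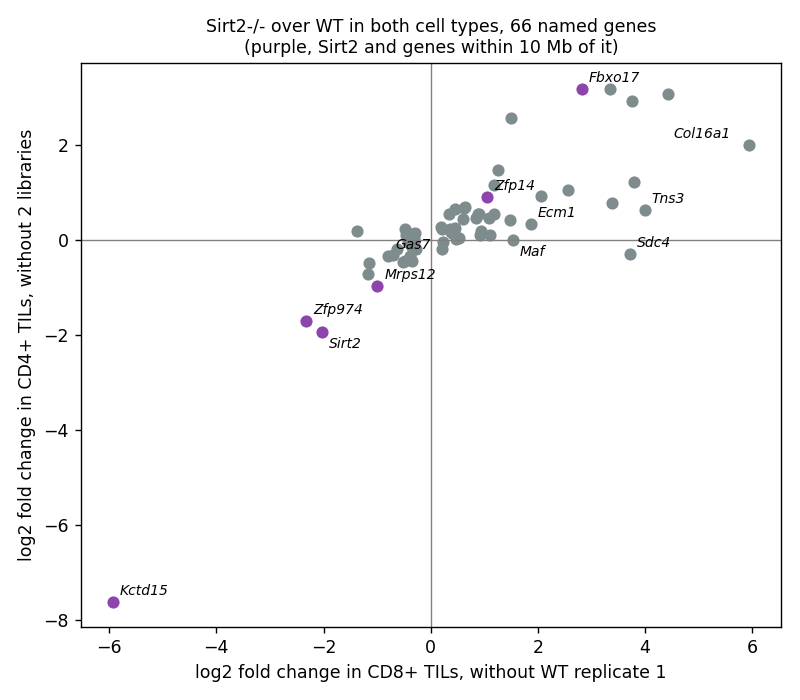
Log2 fold change of *Sirt2*-/- over WT in CD8+ TILs (without WT replicate 1) against CD4+ TILs (without the 2 CD4 libraries with few genes) for 66 named genes tested in both, each point 1 gene. *Sirt2* and 5 genes within 10 Mb of it (purple) have the same sign on both axes, and *Maf* lies at 1.53 on the CD8 axis and near 0 on the CD4 axis.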

How the data were processed

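Total RNA libraries were made by the authors from 1 ng of RNA with a stranded kit, without molecular identifiers. The submitters' processing notes name STAR, HTSeq and mm10, with versions not given in the sources used here. The authors deposited raw counts of reads per gene, whole numbers without normalization, and all 55450 identifiers matched GENCODE mouse release 21. From these, CPM, log2 fold changes and p-values were computed in R 4.3.3 with edgeR 4.0.16 (TMM, filterByExpr by genotype, robust quasi-likelihood test, two-sided, Benjamini-Hochberg adjusted p below 0.05), on the 8 CD8 libraries and without WT replicate 1. SE is the log2 fold change divided by the root of the F statistic. DESeq2 1.42.0 and limma 3.58.1 (voom with quality weights) were alternatives, as were other scalings, filters, a replicate block and fits without each library. The edgeR, DESeq2 and limma-voom fits of all 8 libraries were tested on counts simulated for that comparison, and the other fits were not. Counting error alone underlies the floor of 3 counts for a gene at 0.

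Members and gene lists were chosen with earlier results of these data known. Named genes were *Sirt2*, *Fbxo17*, *Gas7* and *Maf*, genes called by any of 4 fits, the 12 higher and 12 lower genes with the smallest p whose groups did not overlap (mean of at least 1 CPM), and up to 2 members per list and direction at an unadjusted p below 0.05. Receptor-induced, interferon, Y-linked, predicted and receptor segment genes were left out. Some genes that met the rule are not reported here.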

Additional observations from a re-analysis of the deposited data

Results flagged for a closer look

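Of 176 sets of 4 libraries of 1 genotype (each named gene, marker sum, total count and number of genes with a count), 19 had 1 library far from the other 3 by Dixon's criterion, which chance alone meets in about 1 in 20 sets of normally distributed values. WT replicate 1 accounted for 7. It was high for *Sirt2* (51.9 CPM, the others 33.4 to 34.7), *Tnfrsf4* (13.2), *Bik* (3.54), *Eno3* (23.4) and the melanoma marker sum (13.0 CPM, the others at most 7.22). It was low for *Itgb1* (584 CPM, the others 832 to 854) and for genes with a count (14411, the others 20105 to 20980).

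*Sirt2*-/- replicate 4 was high for *Col4a2* (17.8 CPM, the others at most 1.97), the neutrophil marker sum (1.52 CPM) and the endothelial marker sum (9.43 CPM, the others at most 0.626). *Sirt2*-/- replicate 1 was high for *Ifngr2* (32.9 CPM), *Gclc* (75.8) and *Mcl1* (511). *Sirt2*-/- replicate 3 held *Tex11*, a germ cell gene on chromosome X, at 95.6 CPM, against 1.52 to 7.39 CPM in the other *Sirt2*-/- libraries. WT replicate 3 was high for *Icos* (51.8), *Col4a2* (0.68) and *Col16a1* (0.0272, 1 count). WT replicate 2 was high for *Tex11* (0.21, 8 counts) and the neutrophil marker sum (0.682 CPM). For *Col16a1*, *Tex11* and the neutrophil sum all other WT libraries were at 0, so any count meets the criterion. No explanation was tested for any of these values.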

How the results depend on the processing

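The count of called genes in CD8+ TILs depended on the tool and the libraries. From 1 gene by edgeR with all 8 libraries it went to 28 with DESeq2, 5 with limma-voom, 5 without a filter and 3 at an adjusted p below 0.1, and fits without 1 library each gave 0 to 7, the highest without WT replicate 1 and none without *Sirt2*-/- replicate 1 or 4. At an unadjusted p below 0.05 these last 2 fits gave 472 and 414 genes. Without WT replicate 1 the count went from 7 to 63 with DESeq2 and to 2 to 51 without a further library, the highest without *Sirt2*-/- replicate 3. The difference between cell types gave 0 genes in every fit run. Labels share replicate numbers across genotypes but do not state a pairing. Same-numbered libraries did not deviate together (correlations of 0.033, -0.031, -0.082 and 0.0047), which does not settle whether the samples were paired. The replicate block gave 4 genes, *Sirt2* and 3 Y-linked ones. Of 1165 alternative values of the 70 named genes none changed sign, 1124 kept their side of the threshold, 32 passed it newly and 9 lost it. Of 455 alternative list medians, 6 moved by more than the spread between libraries, among them chemokine ligands (0.0398) and matrix genes (0.301) with at least 10 counts in every library. The causes were not tested. Depth limits genes such as *Kctd15* and *Col16a1*, with 0 to 3 counts in a library.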
